A study of Danio rerio with 13 samples.

Results

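The RNA that came down with a control antibody was compared between 2 stages of the zebrafish embryo, the 32-cell stage (preZGA), which precedes zygotic genome activation, and the 1000-cell stage (ZGA), which falls within it. The members were the 6 IgG samples among the 13 samples of the series, 3 at each stage, chosen by antibody and stage. Their sites were read from 4 of the 8 distinct tables, 1 with uniquely mapped and 1 with multi-mapping cDNAs per stage. The 7 hnRNP A1 samples, 3 at preZGA and 4 at ZGA, served only for comparison. All embryos were wild type of the AB strain and were irradiated with UV light at 254 nm before lysis. Every pull-down went through the same gel, and the membrane was taken above the size of hnRNP A1, so the IgG samples hold RNA in complexes of that size range. The labels do not give the number of embryos per sample.

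In iCLIP, proteins are linked by UV light to the RNA they touch, and reverse transcription stops where a protein was attached, which gives the position to the nucleotide. A non-specific IgG in place of the antibody shows which RNA stays on the beads or the membrane without the target protein, and abundant RNA is the usual part of it. Early cleavage runs on RNA that the egg received from the mother. Genome activation is when the zygote starts to make its own transcripts.

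Each group was deposited as 1 pooled table, the same copy for every replicate, so no spread between replicates and no test could be had. Every interval below is an exact 95% interval for counting error, not for variation between embryo clutches or libraries. Each stage was its own set of libraries, and stage and set cannot be told apart. A table lists the nucleotides that passed a significance filter, with their cDNA counts. The sum of a table is therefore not the depth of its libraries, and a nucleotide that is not listed may still have had cDNAs. In pooled embryos, fewer cells with an RNA and less of that RNA per cell cannot be told apart. Positions are those of assembly Zv9, numbered from 1. Genes are not named, because no annotation of that assembly was used, and the labelled tissue was not checked against markers for the same reason.

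One stretch of chromosome 1 held the largest part of the uniquely mapped IgG cDNAs at both stages and was kept out of all totals. This block, the 10 kb on the plus strand from 2600001 to 2610000, went from 5785 IgG cDNAs at preZGA to 7465 at ZGA, a ratio of 1.29 (1.25 to 1.34). Its number of sites was 32 at preZGA and 22 at ZGA.

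Outside the block, IgG cDNAs were more numerous at ZGA. The IgG table listed 3821 cDNAs on 1476 nucleotides at preZGA. At ZGA it listed 12797 cDNAs on 3687 nucleotides. The ZGA number was thus 3.35 times the preZGA number (3.23 to 3.47) in cDNAs and 2.50 times (2.35 to 2.66) in nucleotides. The hnRNP A1 tables went the other way, from 577574 to 470546 cDNAs outside the block, a ratio of 0.815. That comparison sets 3 samples at preZGA beside 4 at ZGA, while a label of the tables speaks of 3 summed replicates, which was not settled. As a percentage of hnRNP A1 cDNAs, IgG was at 0.662% before activation and at 2.72% during it. Whether the antibody, the amount of lysate or the sequencing of the libraries had a part in this was not tested.

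Sites held more cDNAs on average at ZGA. The mean was 2.59 IgG cDNAs per nucleotide at preZGA and 3.47 at ZGA. Nucleotides with 1 cDNA made up 62.5% of IgG sites at preZGA and 47.8% at ZGA. Nucleotides with 10 to 49 cDNAs numbered 43 at preZGA and 214 at ZGA. The strongest class, with 50 or more, was 0.407% of sites at each stage and held 11.3% of cDNAs at preZGA and 9.91% at ZGA.

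The ratio differed widely between parts of the genome. The strongest window outside the block, chromosome 4 minus from 61290001 to 61300000, went from 1766 to 2812 IgG cDNAs, a ratio of 1.59 (1.50 to 1.69). The nuclear chromosomes other than 4 went from 1276 to 3574 cDNAs, a ratio of 2.80 (2.63 to 2.99). The rest of chromosome 4 went from 629 to 4795, a ratio of 7.62 (7.01 to 8.30). The mitochondrial genome went from 150 to 1616, a ratio of 10.8 (9.11 to 12.8). No pair of these 4 intervals overlaps, so the order from the strongest window to the mitochondrial genome is larger than counting error. In hnRNP A1 the same parts had ratios of 1.00, 0.715, 3.15 and 1.20, in the order given. The hnRNP A1 value for the rest of chromosome 4 joins parts that went opposite ways, given apart below.

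**Figure D1:**
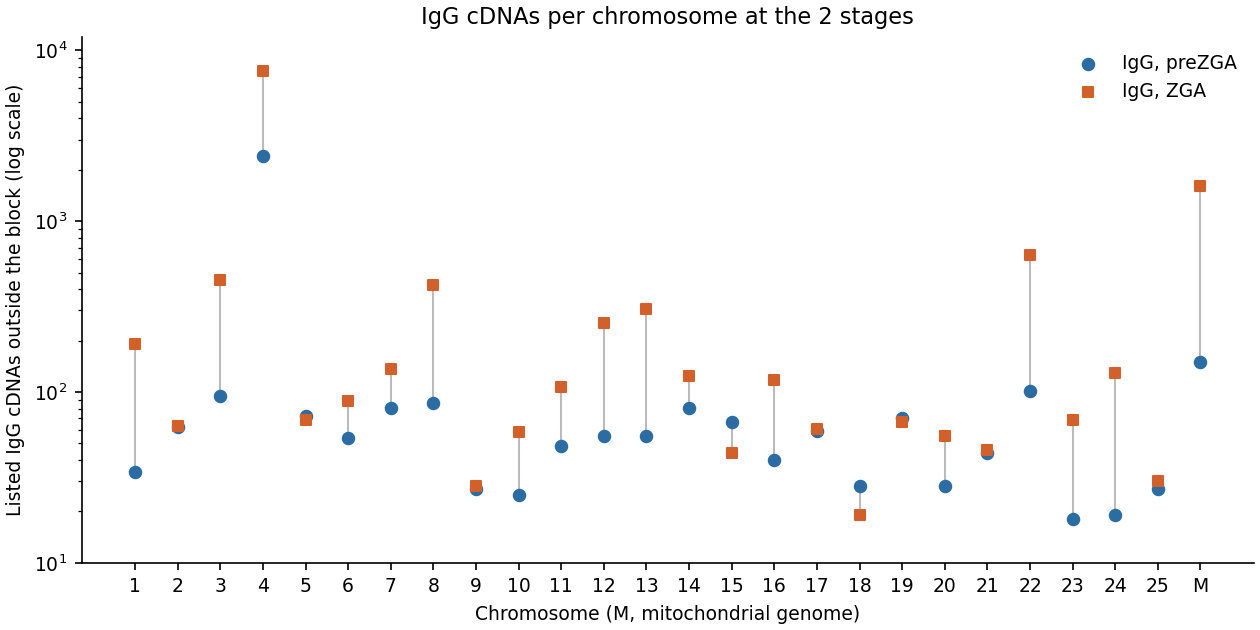
Listed IgG cDNAs outside the chromosome 1 block (log axis) for each chromosome and the mitochondrial genome (M), with circles for preZGA and squares for ZGA and 1 pooled table per stage. Chromosome 4 (2395 and 7607 cDNAs) leads at both stages, the mitochondrial genome goes from 150 to 1616, and chromosome 15 goes from 67 to 44.

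The share of each chromosome in all IgG cDNAs outside the block showed which parts gained relative to the rest. The mitochondrial share went from 3.93% at preZGA (3.33 to 4.59) to 12.6% at ZGA (12.1 to 13.2), a share ratio of 3.22 (2.72 to 3.83). The share of chromosome 4 was 62.7% before and 59.4% during activation, with a share ratio of 0.948 (0.906 to 0.993). This small drop turned into a gain when the strongest window was left out, at a log2 share ratio of 0.65 in place of -0.076. It also turned with numbers of sites in place of cDNAs, at 0.30, with multi-mapping cDNAs added, at 0.16, and with the block kept in the totals, at 0.59.

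Among the other 24 nuclear chromosomes, the increase in cDNAs was not general. The interval of the cDNA ratio lay above 1 for 15 of them, covered 1 for 8 and lay below 1 for 1. Chromosome 22 went from 101 to 635 IgG cDNAs and chromosome 24 from 19 to 130, of which 97 lay on 1 nucleotide. Chromosome 15 went from 67 cDNAs on 54 nucleotides to 44 on 27. For 8 of the 24, the ZGA table listed fewer nucleotides than the preZGA table, although the whole ZGA table was larger.

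By strand, the minus strand held 72.5% of IgG cDNAs at preZGA (71.0 to 73.9) and 58.8% at ZGA (57.9 to 59.6). The strongest window lies on the minus strand. Without it the log2 ratio of the minus share was -0.050 in place of -0.30, and with the block kept in the totals it was 0.36. The hnRNP A1 minus share hardly moved, from 55.1% to 55.5%.

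Along chromosome 4, most of the added cDNAs lay beyond 30 Mb. The long arm of zebrafish chromosome 4 is known for its repeats and late replication. Without the strongest window, 614 IgG cDNAs lay beyond 30 Mb at preZGA and 4756 at ZGA, a ratio of 7.75 (7.12 to 8.44). Before 30 Mb there were 15 and 39, a ratio of 2.60 (1.4 to 5.08), of which 6 and 31 lay between 20 and 30 Mb. Most lay between 40 and 50 Mb, with 381 cDNAs on 167 nucleotides at preZGA and 3366 on 1011 nucleotides at ZGA. Between 60 and 70 Mb, no IgG site was listed at either stage apart from the strongest window. In hnRNP A1, again without the strongest window, cDNAs went from 4815 to 31050 beyond 30 Mb and from 6701 to 5217 before it.

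IgG cDNAs were concentrated in few windows at both stages, and more so by 1 window at preZGA. In windows of 10 kb on 1 strand, 2 windows held 50% of the preZGA cDNAs outside the block and 9 held that part at ZGA. The 5 leading windows held 55.6% and 40.8%. Toward the weak end the order was the reverse, since 90% of the cDNAs took 213 windows at preZGA and 100 at ZGA. Windows with at most 4 cDNAs numbered 330 of the 407 listed at preZGA and 342 of the 515 listed at ZGA.

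Few windows were listed at both stages. Of 818 windows with an IgG site, 407 had one at preZGA and 515 at ZGA. Both stages shared 104, which were 25.6% of the preZGA windows and 20.2% of the ZGA windows. The 303 windows listed at preZGA alone held at most 12 cDNAs each, with a median of 2. The 411 listed at ZGA alone had the same median, but reached 267 cDNAs.

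Windows with at least 20 IgG cDNAs over both stages were compared by their share of the cDNAs outside the block. There were 79, with 73.9% of the preZGA cDNAs and 88.0% of the ZGA cDNAs. Of these, 44 lay on chromosome 4, all beyond 30 Mb, 7 on chromosome 22, 4 on the mitochondrial genome and 24 on 15 other chromosomes. A share at least 2-fold higher at ZGA was found in 51 windows, 64.6% of those compared, and a share at least 2-fold lower in 9, or 11.4%. The other 19 lay within 2-fold. The minimum is set on the sum of both stages, so it favours windows high in the larger ZGA table: 22 of the 51 passed with ZGA sites alone, while no window listed at preZGA alone reached it. With a minimum of 10 cDNAs, 67 of 114 windows were higher and 18 lower. The median share ratio was 3.52, with the 22 windows without a preZGA site counted as the highest. Scaled to that median window, 29 were higher and 26 lower. Those 22 stay higher on any scale. Dividing by the median also tends to even out the counts of higher and lower windows, so no conclusion is drawn from the scaled counts. Without the strongest window, 45 of 78 were higher and 10 lower. In plain numbers, 76 of the 79 windows held more cDNAs at ZGA and 3 held fewer.

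**Figure D2:**
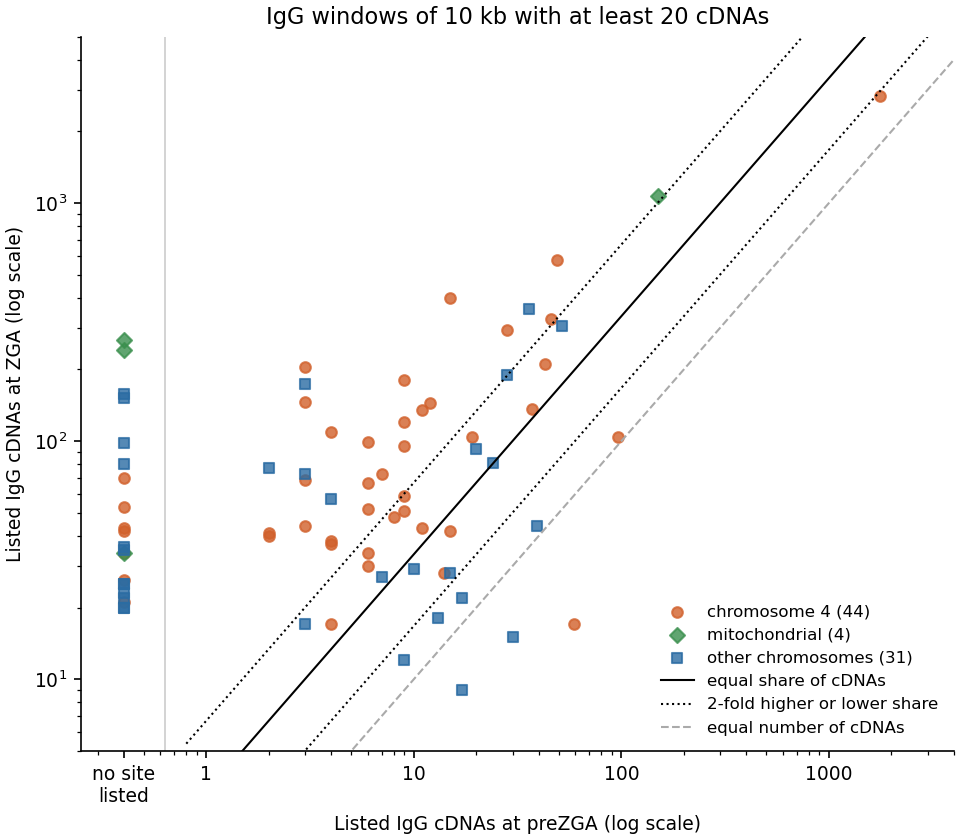
Each point is a 10 kb window on 1 strand with at least 20 IgG cDNAs over both stages, with its listed cDNAs at preZGA (x axis, log) and at ZGA (y axis, log), and windows with no preZGA site listed drawn in the strip on the left. Of the 79 windows, 76 lie above the dashed line of equal numbers and 51 above the upper dotted line of a 2-fold higher share.

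Of the 51 higher windows, 22 had no IgG site listed at preZGA, so no ratio is given for them. The 10 with the most ZGA cDNAs among them were led by the mitochondrial genome. Its minus strand from 1 to 10000 held 267 IgG cDNAs on 75 nucleotides at ZGA, and its plus strand from 10001 on held 242 on 63 nucleotides. Chromosome 12 plus from 3100001 held 158 cDNAs and chromosome 1 minus from 6020001 held 152. The window on chromosome 24 plus from 5390001 held 98 cDNAs on 2 nucleotides, and that on chromosome 22 minus from 34570001 held 80 on 36. The other 4 lay on chromosome 4, with 70 cDNAs on the plus strand from 49320001, 53 on the plus strand from 32190001, 43 on the minus strand from 52430001 and 42 on the minus strand from 42940001. In 8 of these 10 windows hnRNP A1 sites were listed at preZGA, with 9 to 201 cDNAs. Of the 10, only the windows on chromosome 24 and at 42940001 on chromosome 4 had no preZGA site in either pull-down.

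Among windows listed at both stages, the highest share ratios were on chromosomes 4, 13 and 22. These were looked up after their values were seen. Chromosome 4 plus from 32200001 went from 3 to 205 IgG cDNAs, a share ratio of 20.4 (6.88 to 99.8). Chromosome 13 minus from 48550001 went from 3 to 173, a share ratio of 17.2 (5.79 to 84.3), and its neighbour from 48540001 from 3 to 73. Their intervals are wide because the preZGA number is small.

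The leading ZGA windows after the strongest window and the mitochondrial plus strand were on chromosomes 4 and 3, and each was higher at ZGA by more than counting error. Chromosome 4 plus from 40090001 went from 49 cDNAs on 11 nucleotides to 577 on 41, a share ratio of 3.52 (2.62 to 4.81). Its mean was 4.45 cDNAs per nucleotide at preZGA and 14.1 at ZGA, and its top nucleotide was 40099866 at preZGA and 40099861 at ZGA. Chromosome 4 minus from 45690001 went from 15 cDNAs on 11 nucleotides to 401 on 119, a share ratio of 7.98 (4.78 to 14.4). Chromosome 3 minus from 1650001 went from 36 on 22 nucleotides to 358 on 95, a share ratio of 2.97 (2.10 to 4.31). Among the leading preZGA windows, chromosome 8 plus from 40540001 went from 52 cDNAs on 17 nucleotides to 304 on 102, a share ratio of 1.75 (1.30 to 2.39). Its mean per nucleotide was 3.06 and 2.98, so the gain there was in the number of nucleotides.

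On chromosome 22, the 7 windows fell into a near group of 5 on the plus strand and a pair on the minus strand. From 28800001 the plus strand went from 24 to 81 IgG cDNAs, and from 28810001 from 20 to 93, both with share ratios whose interval covers 1. From 28860001 it went from 28 to 189, a share ratio of 2.02 (1.35 to 3.11), and from 28880001 from 4 to 57. From 29040001 it held 25 cDNAs at ZGA, with no site listed at preZGA. On the minus strand, the window from 30780001 went from 2 to 77, a share ratio of 11.5 (3.08 to 96.6), above the intervals of both windows at 28800001 (0.632 to 1.66) and 28810001 (0.850 to 2.38). The other minus-strand window is that from 34570001, given above.

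A share at least 2-fold lower at ZGA was found in 9 windows, and for 8 the interval lay below 1. Only 3 windows held fewer cDNAs at ZGA in plain numbers. Chromosome 4 minus from 49790001 went from 59 cDNAs on 18 nucleotides to 17 on 7, a share ratio of 0.0860 (0.0470 to 0.150). Chromosome 17 plus from 1060001 went from 30 to 15 IgG cDNAs, a share ratio of 0.149 (0.0746 to 0.286). Its hnRNP A1 cDNAs went from 27 to 6, so IgG outnumbered hnRNP A1 there at both stages. Chromosome 3 plus from 60260001 went from 17 to 9, with 12 and 6 of them on nucleotide 60265099, which was also the top hnRNP A1 nucleotide with 389 and 513 cDNAs.

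In 4 more of the 8 windows, the cDNAs were more numerous at ZGA, but by less than in the whole table. Chromosome 4 minus from 52370001 went from 96 to 104 IgG cDNAs, but from 8 to 28 nucleotides. Chromosome 14 minus from 51040001 went from 39 to 44, with 33 and 25 of them on nucleotide 51047074. Chromosome 13 minus from 46920001 went from 17 to 22 and chromosome 7 plus from 2550001 from 13 to 18. The strongest window, with more cDNAs but a smaller share at ZGA, was the last of the 8.

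The strongest window had nearly the same number of nucleotides at both stages. There were 371 at preZGA and 381 at ZGA, while its share of the cDNAs outside the block went from 46.2% to 22%. All 535 nucleotides with an IgG site at either stage were also hnRNP A1 sites at either stage. In these stretches hnRNP A1 was listed on nearly every nucleotide, so almost any position there would have been shared. From 61299637 to 61299868, for instance, it had 231 sites at preZGA and 232 at ZGA over 232 nt. Of the 535 IgG nucleotides of the whole window, 217 were listed at both stages. Of these, 117 had more IgG cDNAs at ZGA, 50 more at preZGA and 50 the same number. Sites no more than 15 nt apart formed 17 clusters, and 13 of these were listed at both stages.

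Inside the window the clusters did not move together. The cluster from 61294465 to 61294533 went from 186 to 791 IgG cDNAs, a ratio of 4.25 (3.62 to 5.02). The cluster from 61299041 to 61299109 went from 602 to 1119, a ratio of 1.86 (1.68 to 2.06). The longest cluster, from 61299637 to 61299868, went from 422 to 273, a ratio of 0.647 (0.554 to 0.755). The intervals of the 3 do not overlap. In hnRNP A1 these clusters went from 5229 to 4178, from 8052 to 19941 and from 11145 to 10239 cDNAs. In plain cDNAs, the first cluster was thus higher at ZGA in IgG and lower in hnRNP A1. All hnRNP A1 cDNAs outside the block were lower at ZGA as well, at a ratio of 0.815. The 3 smaller clusters listed at preZGA alone held 45 IgG cDNAs together.

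Within the cluster from 61299041, neighbouring stretches were listed at different stages. The 12 nucleotides from 61299048 to 61299059 held 327 IgG cDNAs at preZGA, 80 of them on 61299055, and had no significant site listed at ZGA. The 16 nucleotides from 61299076 to 61299091 held 277 IgG cDNAs at ZGA and had no uniquely mapped site listed at preZGA. Between the stretches lay 16 nt. The hnRNP A1 tables listed both stretches at both stages, with 2219 and 5087 cDNAs in the first and 1538 and 3345 in the second. With multi mapping, the second stretch went from 15 to 88.5 IgG cDNAs, and the first held none at either stage. Since only nucleotides that passed the filter are listed, the gaps do not show that no cDNA was there, and the part of the filter in this pattern was not tested.

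**Figure D3:**
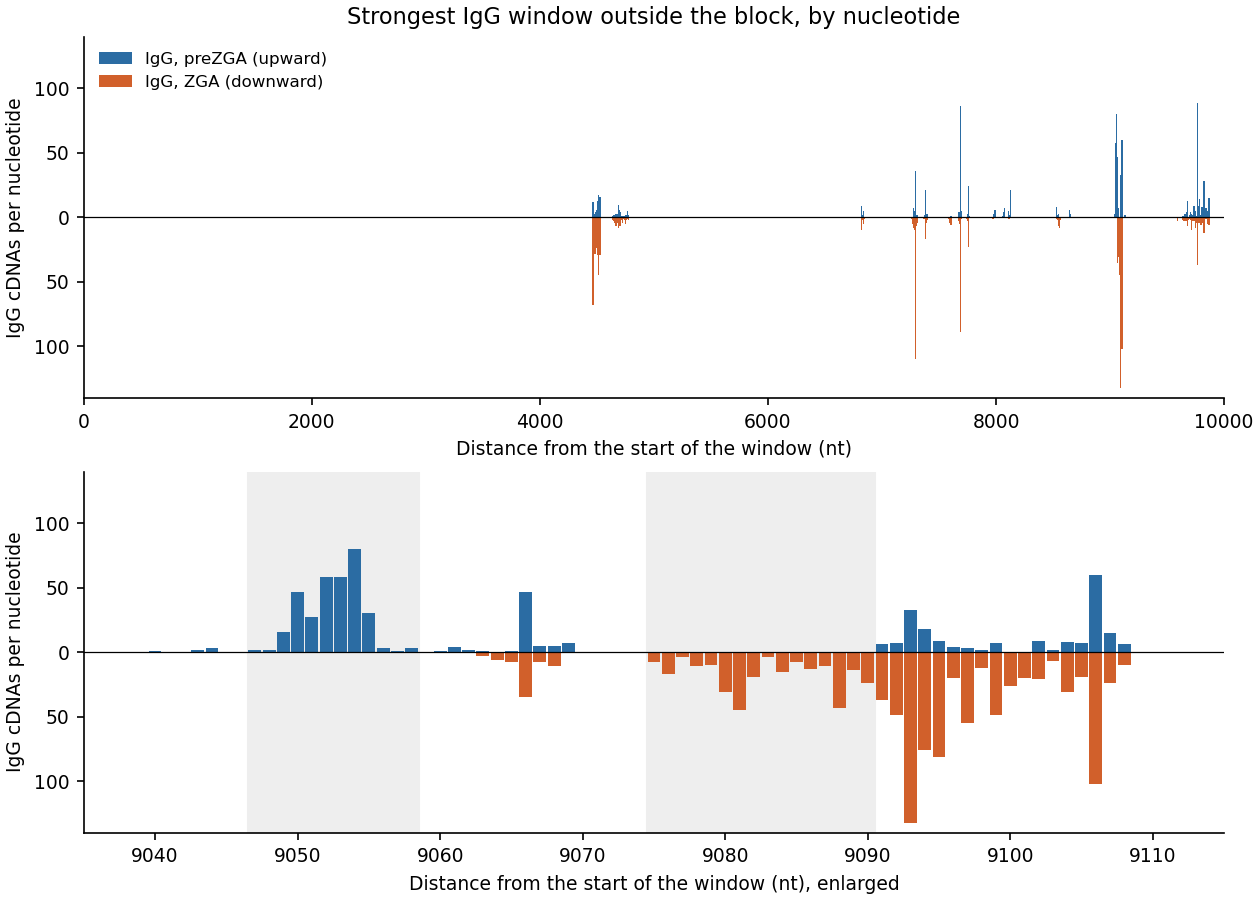
IgG cDNAs per nucleotide along the strongest window outside the block, as distance from its start in nt, with preZGA upward and ZGA downward (1 pooled table each), and below it the cluster near the distance of 9 kb enlarged. The shaded stretches of 12 and 16 nt hold 327 cDNAs listed at preZGA only and 277 listed at ZGA only.

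The strongest single nucleotides changed in part. Outside the block, the first at preZGA was 61299769 in the same window, with 89 IgG cDNAs, against 37 at ZGA. Next came 61297687, with 86 and 89. The first at ZGA was 61299094, with 132 against 33 at preZGA, followed by 61297297, with 110 against 36. Nucleotide 61299107 was among the 5 strongest at both stages, with 60 and 102. The other leaders at ZGA lay elsewhere, on the mitochondrial plus strand at 1951 and on chromosome 24 plus at 5396829.

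Mitochondrial IgG sites were few and on 1 strand at preZGA, and were spread over both strands at ZGA. The mitochondrial genome is transcribed from both strands into long precursors, and most of its genes lie on 1 strand. At preZGA the IgG table listed 150 cDNAs on 37 nucleotides, all on the plus strand, in 4 clusters from 981 to 2901. At ZGA the plus strand held 1315 cDNAs on 284 nucleotides in 17 clusters, from 834 to 16493. The minus strand held 301 cDNAs on 85 nucleotides in 6 clusters, from 4877 to 15276, or 18.6% of the mitochondrial IgG cDNAs. In hnRNP A1 the minus strand held 1.62% of the mitochondrial cDNAs at preZGA and 6.14% at ZGA. Together, 19 of the 23 mitochondrial IgG clusters were listed at ZGA alone, with 1179 cDNAs. The 19 include single nucleotides on the plus strand at 950, 4940 and 10543, with 12, 1 and 1 cDNAs.

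The 4 mitochondrial clusters listed at both stages went different ways. The cluster from 966 to 991 went from 2 to 262 IgG cDNAs. The cluster from 1278 to 1306 went from 31 to 78, a ratio of 2.52 (1.64 to 3.95). That from 2287 to 2315 went from 39 to 48, with an interval that covers 1 (0.790 to 1.93), and that from 2840 to 2901 from 78 to 49, a ratio of 0.628 (0.430 to 0.909). The mitochondrial gain thus lay mostly at positions not listed at preZGA. Nucleotide 2300, the top hnRNP A1 nucleotide of the mitochondrial genome at both stages, stayed level, with 26 IgG cDNAs at each stage and 2086 and 2063 of hnRNP A1.

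Some clusters listed at ZGA alone lay where hnRNP A1 had many cDNAs at both stages, but most did not. The plus-strand cluster from 1887 to 1953 held 277 IgG cDNAs at ZGA with no site listed at preZGA, beside 2236 and 2246 hnRNP A1 cDNAs. Within it, nucleotide 1951 held 100 IgG and 407 hnRNP A1 cDNAs at ZGA and was listed in neither table at preZGA. The cluster from 3588 to 3704 held 205 IgG cDNAs at ZGA, beside 1520 and 2338 of hnRNP A1. The other mitochondrial clusters listed at ZGA alone had at most 62 hnRNP A1 cDNAs at preZGA, and each had more at ZGA. On the minus strand, for instance, the cluster from 6319 to 6344 held 109 IgG cDNAs at ZGA, beside 7 and 400 of hnRNP A1.

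The nucleotides themselves were shared in part. Outside the block, 526 nucleotides had an IgG site at both stages, or 35.6% of the preZGA set (33.2 to 38.1) and 14.3% of the ZGA set (13.2 to 15.4). Shared nucleotides held 4.04 cDNAs on average at preZGA against 1.79 at the others, and 8.56 against 2.62 at ZGA. Across the 526, Spearman's rho between the stages was 0.47, a description only, since neighbouring nucleotides share libraries and RNA.

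The shared part differed by region. On chromosome 4 without the strongest window, 70.7% of the preZGA nucleotides (64.5 to 76.3) were also listed at ZGA. In the strongest window it was 58.5% (53.3 to 63.6), on the mitochondrial genome 37.8% (22.5 to 55.2) and on the other chromosomes 15% (12.6 to 17.6). The shared nucleotides made up 11.4% of the ZGA set of chromosome 4 without the strongest window. They were 57.0% of the ZGA set in the strongest window, 3.79% on the mitochondrial genome and 8.62% on the other chromosomes. The percentage of preZGA nucleotides also depends on how many ZGA nucleotides a region had. Chromosome 4 without the strongest window had 242 at preZGA and 1499 at ZGA, and the other chromosomes 826 and 1438. Read in windows, the top nucleotide was the same at both stages in 15 of the 57 windows of at least 20 cDNAs with sites at both.

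Most windows of at least 20 IgG cDNAs had a higher hnRNP A1 share at ZGA, also where their IgG share was not higher. Of the 79 windows, 77 had at least 20 hnRNP A1 cDNAs as well. In 69 of these the hnRNP A1 share outside the block was at least 2-fold higher at ZGA. The 69 were 47 of the 50 windows with a higher IgG share, 17 of the 19 within 2-fold and 5 of the 8 lower ones. Among all 5345 windows with at least 20 hnRNP A1 cDNAs, 15% were at least 2-fold higher and 24.6% at least 2-fold lower. The minimum on IgG cDNAs favours windows high in the ZGA IgG table. The 5345 windows did not have to meet it, so the sets are not alike. For 54 windows all 4 tables listed a site, and in 51 of these the hnRNP A1 share ratio was larger than that of IgG. A share depends on the rest of its table, and windows of at least 20 cDNAs hold most of the IgG cDNAs outside the block. In plain cDNAs, IgG as a percentage of hnRNP A1 was lower at ZGA in 31 of the 54. Their median log2 share ratio was 1.09 in IgG and 3.54 in hnRNP A1, against -0.29 over all hnRNP A1 windows. IgG cDNAs came to a median of 16.7% of the hnRNP A1 cDNAs of the same window at preZGA and 18.3% at ZGA.

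**Figure D4:**
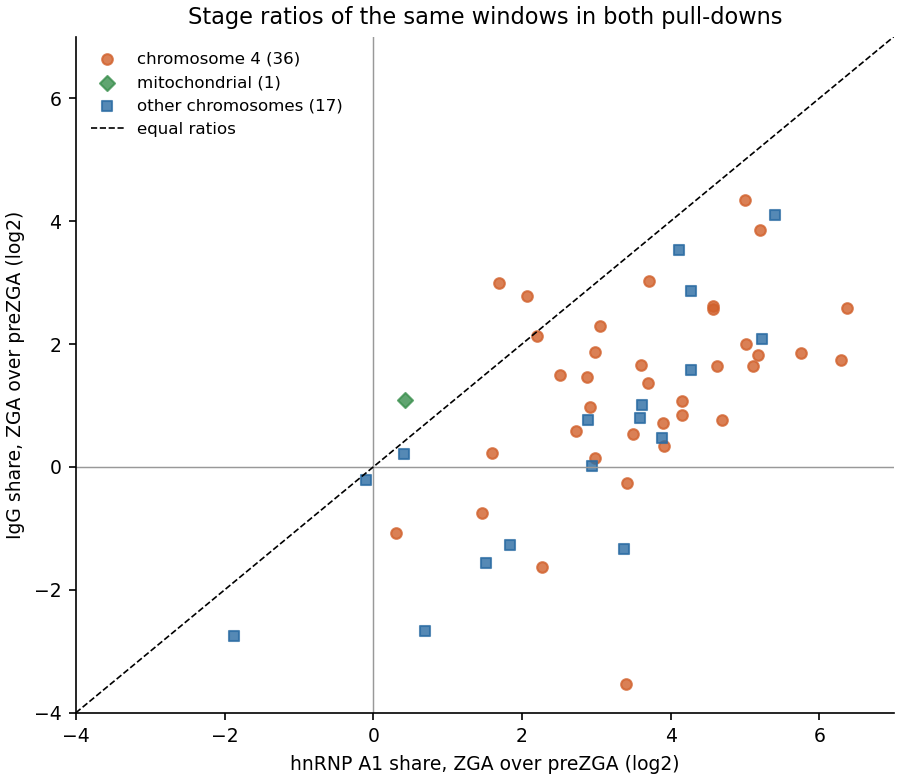
Log2 of the share of a window at ZGA over that at preZGA, in hnRNP A1 (x axis) and in IgG (y axis), for the 54 windows with at least 20 cDNAs in each pull-down and sites in all 4 tables. In 51 windows the point lies below the dashed line of equal share ratios, while in plain cDNAs IgG was lower relative to hnRNP A1 at ZGA in 31 of the 54. The strongest window lies at 0.30 and -1.07, although its IgG cDNAs went from 2.94% to 4.66% of its hnRNP A1 cDNAs.

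With unique mapping, IgG nucleotides were more often hnRNP A1 sites of the same stage at ZGA than at preZGA. Outside the block the share was 59.7% at preZGA (57.1 to 62.2) and 81.4% at ZGA (80.1 to 82.6). The others were weak, with means of 1.41 and 1.38 cDNAs against 3.39 and 3.95 for the shared ones. They held 21.9% of the IgG cDNAs at preZGA and 7.40% at ZGA. The percentages of shared nucleotides include the strongest window, with 371 of the 1476 IgG nucleotides at preZGA and 381 of the 3687 at ZGA. Almost any position there was an hnRNP A1 site, so the preZGA percentage in particular depends on that window. With multi mapping, only 30.9% of the IgG nucleotides at preZGA and 31.1% at ZGA were hnRNP A1 sites of the same stage.

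In 6 of the 79 windows, the IgG cDNAs of each stage lay on at most 2 nucleotides. Nucleotide 5396829 on chromosome 24 plus held 97 IgG and 198 hnRNP A1 cDNAs at ZGA, and was listed in neither pull-down at preZGA. Nucleotide 2137907 on chromosome 19 plus went from 14 to 28 IgG cDNAs, beside 48 of hnRNP A1 at ZGA and no listed site at preZGA. Nucleotide 46920635 on chromosome 13 minus held 17 and 21 IgG cDNAs, beside 2 of hnRNP A1 at ZGA. Nucleotide 12649683 on chromosome 6 plus held 22 IgG and 15 hnRNP A1 cDNAs at ZGA. Nucleotide 24387947 on chromosome 16 minus held 22 IgG and 38 hnRNP A1 cDNAs at ZGA. At the nucleotides on chromosomes 13 and 6, IgG exceeded hnRNP A1 at ZGA. The remaining window, chromosome 11 minus from 23440001, went from 3 to 17 IgG cDNAs.

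Most IgG cDNAs of the chromosome 1 block lay in a run of 12 nucleotides. From 2600143 to 2600154 lay 94.7% of the IgG cDNAs of the block at preZGA (5477) and 98.0% at ZGA (7312). The run had maxima at 2600144, with 1031 IgG cDNAs before and 1781 during activation, and at 2600152, with 665 and 674. The first maximum was thus larger at ZGA and the second nearly level. IgG exceeded hnRNP A1 on 10 of the 12 nucleotides at preZGA and on 4 at ZGA. Outside the run, nucleotide 2600181 went from 89 to 4 IgG cDNAs and from 1189 to 136 hnRNP A1 cDNAs.

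Multi-mapping cDNAs, each divided over its genomic hits, led at a place of similar shape. The window on chromosome 9 plus from 4230001 went from 679 to 934 IgG cDNAs, from 38.3% to 26.1% of the multi-mapping table of each stage. Nearly all lay from 4239829 to 4239839, with maxima at 4239831 (102 and 195 cDNAs) and 4239838 (158 and 142). As in the block, the gain lay mostly at the first maximum and the nucleotides beside it. Next to the maximum, 4239832 went from 36.7 to 186 IgG cDNAs, and 2600145 in the block from 618 to 1210. In the whole chromosome 9 window, hnRNP A1 had 279 cDNAs at preZGA and 862 at ZGA, so IgG came to 243% and 108% of that number.

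**Figure D5:**
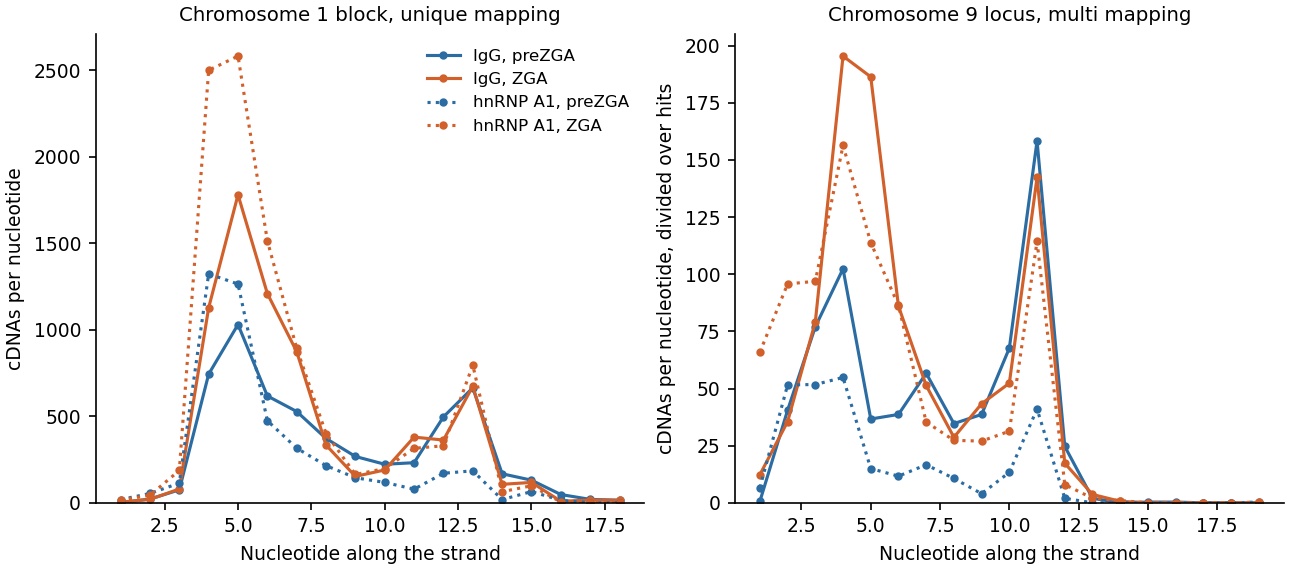
cDNAs per nucleotide along the run on chromosome 1 (left, unique mapping) and the leading multi-mapping place on chromosome 9 (right, cDNAs divided over genomic hits), in IgG (solid lines) and hnRNP A1 (dotted lines) at both stages. Each run has a pair of maxima, 8 nt apart in both IgG tables on the left and 7 nt apart on the right.

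Over the whole multi-mapping tables, IgG went from 1775 cDNAs on 5211 nucleotides to 3584 on 9045. Chromosome 4 took 16.5% of these cDNAs at preZGA and 33.5% at ZGA. Without the leading window on chromosome 9 it took 26.7% and 45.3%. With unique mapping its share was nearly level when the block was left out. With the block kept, its log2 share ratio with unique mapping was 0.59. The window of the strongest unique signal, chromosome 4 minus from 61290001, went from 63.3 to 371 multi-mapping IgG cDNAs. Chromosome 1 plus from 3370001 went from 60.7 to 363, nearly the same numbers, and a cDNA with hits in both is divided between them. Chromosome 4 plus from 41900001 went from 12.9 to 186 cDNAs and its neighbour from 41890001 from 13.7 to 80.2. Against these, chromosome 14 plus from 52120001 was nearly level at 26.9 and 30.4, and chromosome 4 plus from 43980001 went from 18.9 to 9.17. Counts divided over hits are not independent cDNAs, so no interval is given for them.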

How the data were processed

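iCLIP was done with anti-hnRNP A1 or IgG at 2 stages, with complexes treated with RNase I, run on a gel and reverse transcribed with barcoded primers, per the labels' protocols. The deposited column holds a signed cDNA count per nucleotide, and its sign is the strand. The names of the deposited tables give a false discovery rate below 0.01, 100 permutations, a neighbourhood of 15 nt, Ensembl release 72 and assembly Zv9. CASAVA 1.4 is named in the submitters' processing notes, and the aligner and the removal of duplicates are not given in the sources used here. The 26 files hold 8 distinct tables, and copies were counted once.

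Here, absolute values were summed per chromosome, strand and 10 kb window. A share ratio is the share of cDNAs outside the block at ZGA over that at preZGA. A plain ratio is the listed number of cDNAs or nucleotides at ZGA over that at preZGA, not divided by totals. Intervals given for either are exact conditional binomial intervals. Shares have Clopper-Pearson intervals at 95%. Clusters join sites at most 15 nt apart, and a mitochondrial site with no other so near was counted as a cluster too. The code was tested on simulated counts. Windows named were, per stage, the 5 leading ones, and the 10 highest and 10 lowest share ratios among windows of at least 20 cDNAs with an interval that excludes 1. Where no preZGA site was listed, windows were ordered by their ZGA count. Single nucleotides named were the 5 strongest per stage, and both mitochondrial strands were described. The focal nucleotides and the highest finite share ratios, the clusters and the stretches, and the chromosome 22 windows were chosen after their values were seen. Members, rules and lists were chosen with earlier results of these data known. No model was fitted. Sums and intervals were computed in Python 3.11.15 with pandas 2.3.3, numpy 2.4.6 and, for the beta quantiles, scipy 1.17.1; figures were drawn with matplotlib 3.10.9.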

Additional observations from a re-analysis of the deposited data

Results flagged for a closer look

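In the places given here, the total or the share went opposite ways between the stages in IgG and hnRNP A1, and none of these differences was tested, since each group is 1 pooled table. The cDNAs outside the block were 3.35 times as many at ZGA in IgG and 0.815 times as many in hnRNP A1. In 6 windows the IgG share was lower at ZGA and the hnRNP A1 share higher. In 4 of them this holds for shares only, since both pull-downs listed more cDNAs at ZGA. Their IgG cDNAs went from 1766 to 2812 at 61290001, from 96 to 104 at 52370001, from 39 to 44 at 51040001 and from 13 to 18 at 2550001. Those at 49790001 went from 59 to 17 and those at 60260001 from 17 to 9, while hnRNP A1 cDNAs were more numerous at ZGA in all 6. At 61290001 the hnRNP A1 number was nearly level, with 60053 cDNAs at preZGA and 60294 at ZGA. In the strongest window, chromosome 4 minus from 61290001, the share ratio was 0.475 in IgG and 1.23 in hnRNP A1. On chromosome 4 minus it was 0.323 and 4.81 from 52370001, and 0.0860 and 10.5 from 49790001. On chromosome 14 minus from 51040001 it was 0.337 in IgG and 2.87 in hnRNP A1. On chromosome 7 plus from 2550001 it was 0.413 and 3.59. On chromosome 3 plus from 60260001 it was 0.158 and 1.63.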

How the results depend on the processing

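The tables list filtered nucleotides of pooled samples, so depth, spread between clutches and unlisted cDNAs could not be weighed. No paired analysis was possible because each group is 1 pooled table, although the labels give the stages the same replicate numbers. For the same reason leaving out single replicates and the replicate block were not run. Of 58 alternative values, 17 stayed within the counting interval or, for counts, within 1.5 times, 35 moved and 6 changed direction. The cause was not tested unless the alternative itself sets it. With sites of at least 2 cDNAs the ratio of cDNAs was 3.81, that of sites 3.48, the log2 share ratio of chromosome 4 -0.23 and of the minus strand -0.37, and 44.1% of preZGA sites were shared. With at least 5 cDNAs these were 4.01, 4.51, -0.35, -0.41 and 59.3%, and the mitochondrial log2 share ratio was 1.30. With multi mapping added the ratio of cDNAs was 2.93, that of sites 1.90, and the log2 share ratios of chromosome 4 and the minus strand were 0.16 and -0.16. With the block in the totals the ratio of cDNAs was 2.11, and the log2 share ratios of the mitochondrial genome, chromosome 4 and the minus strand were 2.35, 0.59 and 0.36. Without the strongest window the ratios of cDNAs and sites were 4.86 and 2.99 and the 3 log2 share ratios 1.15, 0.65 and -0.050. There 28% of preZGA sites were shared, an alternative added after seeing the data. With numbers of sites in place of cDNAs the 3 were 2.0, 0.30 and -0.16. For IgG sites that were not hnRNP A1 sites the log2 share ratio of chromosome 4 was 0.44 and of the minus strand -0.081, and no mitochondrial value could be had. All 6 mitochondrial alternatives kept a share higher at ZGA. Windows lower at ZGA numbered 16 of 113 with 1 kb windows and 18 of 114 with at least 10 cDNAs, against 9 of 79. With at least 50 cDNAs, 32 of 47 windows were higher and 4 lower. Scaled to the median window, which tends to even out the counts by construction, 29 were higher and 26 lower. Shared sites came to 44.8% within 1 nt and 52.0% within 15 nt. Thinned to the preZGA total, where the ratio of cDNAs is 1 by construction, the ZGA table had 1.24 times the sites and shared 23.6% of the preZGA sites.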

Other observations

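In some windows of at least 5 IgG cDNAs, the IgG table held more cDNAs than the hnRNP A1 table of the same stage. At preZGA this was the case in 13 of 77 such windows, with 190 IgG cDNAs in all, and 7 of the 13 had no hnRNP A1 site listed. At ZGA it was 16 of 173 windows, with 140 IgG cDNAs, and 8 of the 16 had no hnRNP A1 site listed.

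The 739 windows with fewer than 20 IgG cDNAs over both stages held 996 cDNAs on 733 nucleotides at preZGA and 1542 on 919 at ZGA. Of the preZGA nucleotides outside the block, 30.1% were listed in neither hnRNP A1 table, against 17.0% of the ZGA nucleotides. With multi mapping, 63.7% and 65.9% were listed in neither.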
